A study of Mus musculus with 8 samples.

Results

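Hmgcs1, Idi1, Fdps, Fdft1, Sqle, Lss, Insig1 and Srebf2 are 8 genes of the cholesterol synthesis pathway and of the sterol feedback that controls it. They were picked by gene name among the non-control probes of a mouse expression array, and 10 of the 55681 probes, or 8 of the 36163 gene names, belong to them. None of the 8 encodes an uptake receptor, so uptake was described from a separate list. The study profiled E14Tg2A, an embryonic stem (ES) cell line of strain 129/Ola, during neuralization in culture, and asked which mRNAs are held by Argonaute (Ago), the protein core of the RNA-induced silencing complex. At day 0 of differentiation in vitro (DIV) the ES cells grew on gelatin in medium with fetal calf serum and leukemia inhibitory factor (LIF). Epiblast-like aggregates (ELA, 2 DIV) floated in a chemically defined minimal medium with the N2 and B27 supplements, without serum or LIF. Neural progenitor cells (NPC, 6 DIV) stayed in that medium attached to poly-ornithine and laminin, and neural precursors (NPC/Neu, 10 DIV) had been replated in the same medium without B27. At each of the 4 stages 1 array measured total RNA and 1 array measured Ago-RNA, the RNA that coprecipitated with an anti-pan Ago antibody from cytoplasmic complexes. RNA of 3 independent experiments was pooled before labelling, so each of the 8 conditions is a single array of a single cell line with no replicate, and medium, substrate and stage change together and cannot be told apart.

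Cells make cholesterol from acetyl-CoA through mevalonate, farnesyl diphosphate, squalene and lanosterol, or take it up from lipoproteins, which serum supplies. When sterols in the endoplasmic reticulum are low, the escort protein Scap carries the transcription factors SREBP-1 and SREBP-2 to the Golgi, where proteases release their active part. SREBP-2 then drives the genes of the pathway, genes of lipoprotein uptake and its own gene, while the Insig proteins hold Scap back when sterols are plentiful. SREBP-1 acts mainly on fatty acid synthesis genes, and neural tissue makes its own cholesterol locally.

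SREBP-2 binds sterol regulatory elements close to the start of its target genes, often next to a CCAAT box, which binds NF-Y. For this reason the promoters of the 8 genes were read from RefSeq (build GRCm38.p6) in a window from 250 bases before the start site to 50 bases after it. Windows were found for 5 genes, Hmgcs1, Idi1, Lss, Insig1 and Srebf2, and the other names are Sqle, Fdps and Fdft1. The sterol regulatory element was searched as TCACCCCAC on both strands and was found in Hmgcs1 alone of the 5, at 137 bases before the start, against 0.551% of all 32851 promoters. It is shown with the element in capitals, at chr13:119690203-119690232 on the plus strand.
Hmgcs1 sterol element: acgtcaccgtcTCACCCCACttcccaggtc
The CCAAT box was found in all 5 windows, each time on the opposite strand and so as ATTGG, while 37.4% of all promoters held it on either strand. The box nearest before the start is shown for each gene in capitals. It lay 45 bases before the start in Hmgcs1 (chr13:119690293-119690322), 14 in Idi1 (chr13:8885579-8885608), 62 in Lss (chr10:76531530-76531559), 135 in Srebf2 (chr15:82147121-82147150) and 216 in Insig1 (chr5:28071183-28071212), all on the plus strand.
Hmgcs1: gtccccgcctctcATTGGctgaaagcggat
Idi1: ggtccaaggtgccATTGGctggcgaccgac
Lss: tggtgatgctctgATTGGccgagctcgcat
Srebf2: gcttcgcgcgccgATTGGctaatgcaagcc
Insig1: ccgccctcctcccATTGGctccggcggcct
The shorter form CACCCCAC was also found in Hmgcs1 alone of the 5, at the element printed (2.87% of all promoters). The Sp1 box GGGCGG was found in all 5 (35.7% of all promoters), and the E-box CACGTG in Insig1 only (7.15%). These are matches of letters and not measured binding sites.

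Spots well above background made up 53.4% to 61.2% of the gene spots per array, and the upper quartile of the raw signal reached 3039 for Ago-RNA of ES cells against 1060 to 1774 on the other 7 arrays. This array stands apart in brightness, and the part of that difference in the ES Ago enrichments given further down was not tested. Most markers of pluripotency, neural progenitors and neurons followed the stage labels in total RNA, with exceptions. Zfp42, a marker of naive pluripotency, was at 15.97, 12.36, 8.71 and 9.76 on the log2 signal scale in ES, ELA, NPC and NPC/Neu. Fgf5, a primed epiblast gene, stood at 11.96, 14.78, 7.48 and 7.89, and Hes5, a Notch effector of neural progenitors, at 8.97, 11.30, 16.28 and 16.19. Tubb3, a neuronal tubulin, was at 12.95, 13.65, 14.99 and 17.01. The pluripotency gene Esrrb was at 9.59 in NPC and again at 11.55 in NPC/Neu, and Pou3f1, of the primed epiblast list, at 11.52 and 13.09. Of the 6 mesendoderm and endoderm markers, Eomes was highest in NPC/Neu (11.33 against 8.69 in NPC), T stood at 7.19 in ELA and 9.73 in NPC, and Sox17 at 7.09 and 8.08, while Gata6 and Afp were not well above background at any stage. Of the 4 glial markers, Olig2 was at 6.48 in ES and 9.31 in NPC/Neu, Aldh1l1 ranged from 9.72 to 11.28, Mbp from 8.32 to 9.91 and Gfap from 6.81 to 6.95. The part of these other cell types in the results was not tested. In these bulk samples fewer cells of a type and less RNA per cell cannot be told apart.

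Total RNA of every one of the 8 genes was lowest in ES cells and highest in NPC/Neu. This order of the 2 ends was shared by 14.6% of 35992 gene names measured at all stages. Values below are log2 signals after background correction and quantile normalization. The spread between repeated spots of the same probe gave a spot SD of 0.22 for a total RNA difference between stages. It covers the printing and reading of the array and not the spread between cultures, so no p-value was computed.

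Hmgcs1, which condenses acetoacetyl-CoA and acetyl-CoA to HMG-CoA, had the widest range. Its total RNA signal at the 4 stages in order was 15.26, 16.13, 17.22 and 17.87, so each stage stood above the one before it. From ES to NPC/Neu the log2 difference was 2.61, or 6.10-fold. Its probe was annotated to an unplaced part of chromosome 13 in mm9 and matched no coding transcript of the GENCODE vM1 set.

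Idi1 and Fdps act next, between mevalonate and farnesyl diphosphate. Idi1, the isopentenyl diphosphate isomerase (mm9 chr13:8884852-8891641, plus strand), was at 14.69, 14.96, 15.23 and 15.73 in ES, ELA, NPC and NPC/Neu. Its difference of 0.27 from ES to ELA was the smallest of the 8 genes and within 2 spot SDs, and that from ES to NPC/Neu was 1.04. Fdps, which makes farnesyl diphosphate (chr3:88897514-88905881, minus strand), was at 15.68, 16.30, 16.16 and 16.87, higher at ELA and again at NPC/Neu with little difference between ELA and NPC.

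Fdft1, Sqle and Lss then form and close the sterol skeleton. Fdft1, squalene synthase (chr14:63763990-63796630, minus strand), has a bright and a dim probe. The bright probe, which matched no coding transcript of the GENCODE vM1 set, was at 13.65, 14.11, 14.31 and 15.02. The dim probe, which lies in the 3′ untranslated region of 1 annotated transcript and was well above background on 4 of the 8 arrays, was at 6.63, 7.52, 7.23 and 7.77. Both probes were highest in NPC/Neu, but they differed in their order of ELA and NPC, and the mean over both probes, used as the gene's value, gave 1.25 from ES to NPC/Neu.

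Sqle, squalene epoxidase and a controlled step of the pathway (chr15:59146632-59162747, plus strand), was at 14.94, 15.72, 15.66 and 16.61. Its 0.95 from NPC to NPC/Neu was the largest of the 8 genes at this step. Lss, lanosterol synthase (chr10:75994333-76019883, plus strand), was at 12.27, 13.07, 12.89 and 13.49, again with a higher level at ELA, none further at NPC and a higher level at NPC/Neu.

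The regulators followed the enzymes. Insig1, the sterol-sensing anchor of Scap (chr5:28397952-28405201, plus strand), was at 10.09, 10.92, 10.73 and 11.58, a log2 difference of 1.48 or 2.80-fold from ES to NPC/Neu. Srebf2, which encodes SREBP-2 (chr15:81977696-82035806, plus strand), has 2 probes, both well above background on every array. The brighter probe, in the 3′ untranslated region, was at 10.68, 11.41, 11.34 and 12.07. The dimmer probe, in the coding sequence, was at 8.70, 8.70, 8.76 and 9.25, so that only the brighter probe showed a difference at ELA, and the gene's mean from ES to NPC/Neu was 0.97.

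**Figure D1:**
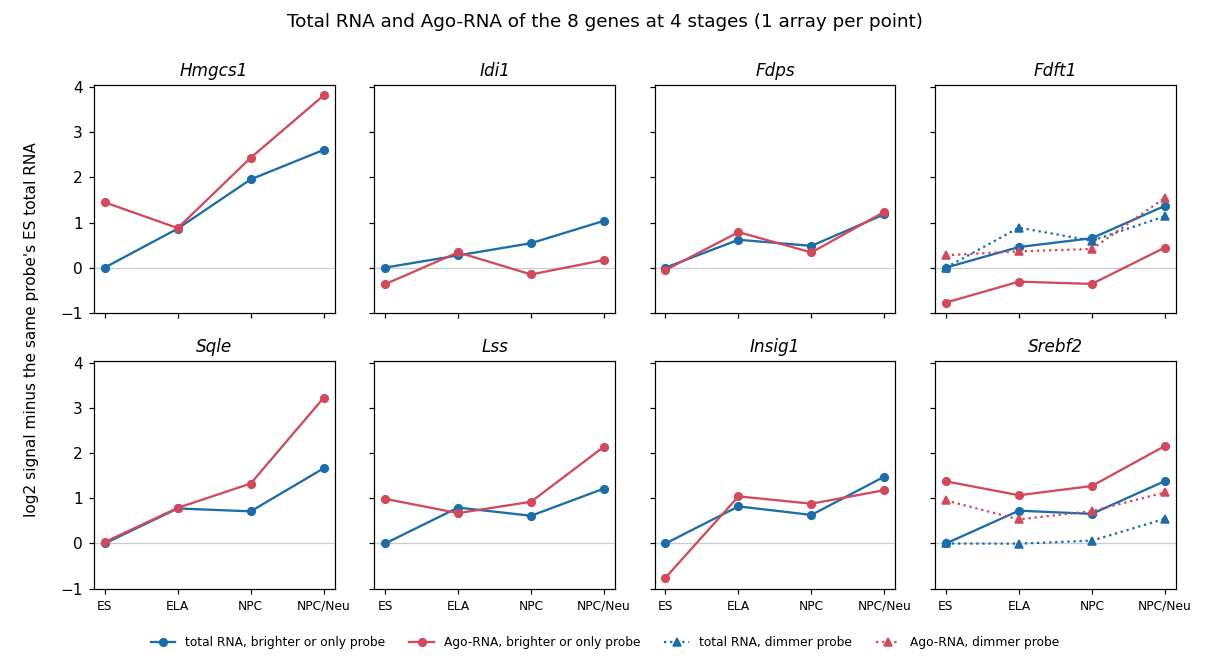
Log2 signal of total RNA (blue) and Ago-RNA (red) at ES, ELA, NPC and NPC/Neu, each minus the same probe's ES total RNA, for the 8 genes. Each point is 1 array, solid lines are the brighter or only probe and dotted lines the dimmer one. Total RNA ended highest in NPC/Neu in every panel, while Ago-RNA of Hmgcs1, Lss and Srebf2 lay above total RNA in ES and close to it, or less far above it, in ELA.

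At a log2 difference of 1 or more, 7 of the 8 genes were higher in NPC/Neu than in ES, and Srebf2 at 0.97 lay just below. Of all gene names, 11.3% passed this in the same direction. The median of the 8 was 1.24 against -0.02 over all gene names. With the scanner's processed signal scaled to each array's 75th percentile instead, 3 of the 8 passed (Hmgcs1 at 1.84, Fdft1 at 2.48 and Insig1 at 1.49), and the median was 0.95, or 0.89 above the median of all gene names. The 11.3% is for the main processing, and no such share is given for this scaling. The Fdft1 value of 2.48 includes its dim probe, which was well above background on only 4 of the 8 arrays. Its bright probe alone gave 1.37 in the main processing.

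Within the separate steps few differences reached 1. From ES to ELA none of the 8 did (3.04% of all gene names), from ELA to NPC Hmgcs1 alone did with 1.09 (7.13%), and from NPC to NPC/Neu none did (3.65%). A smaller limit of 2 spot SDs, about 0.44, was chosen after the values were seen. From ES to ELA 6 of the 8 were higher by more than that, all but Idi1 and Srebf2, against 12.6% of all gene names and 15.8% of those with a probe well above background on an array compared. From NPC to NPC/Neu all 8 were, against 11.4% and 16.1%. With the 75th percentile scaling Hmgcs1 (0.06), Idi1 (0.23), Fdps (0.33) and Lss (0.42) did not pass this limit at that step, and the other members did.

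The 2 steps together set the shape of the profile. Both were passed in the upward direction by 6 of the 8 genes, by 7 of the 16 other synthesis enzymes and by 3.36% of all gene names. The share was 4.94% among gene names well above background on all 4 total RNA arrays. Of the 6, Hmgcs1, Fdps and Lss did not pass the later step with the 75th percentile scaling. Between the 2 steps, from ELA to NPC, 7 of the 8 genes differed by 0.27 or less in size, and Hmgcs1 was the exception. The medians of the 8 were 0.72, -0.06 and 0.64 at the 3 steps in order. All 24 values from ES to ELA, from NPC to NPC/Neu and from ES to NPC/Neu stayed above 0 under each of the 8 processing alternatives. The smallest margin was that of Hmgcs1 from NPC to NPC/Neu, where the difference of 0.65 became 0.06 with the 75th percentile scaling. That value lay below the median of all gene names with this scaling, 0.13. Neuronal markers were also higher in NPC/Neu than in NPC (Dcx at 10.88 against 7.94, Stmn2 at 15.73 against 13.85), and their part in the higher cholesterol genes was not tested.

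**Figure D2:**
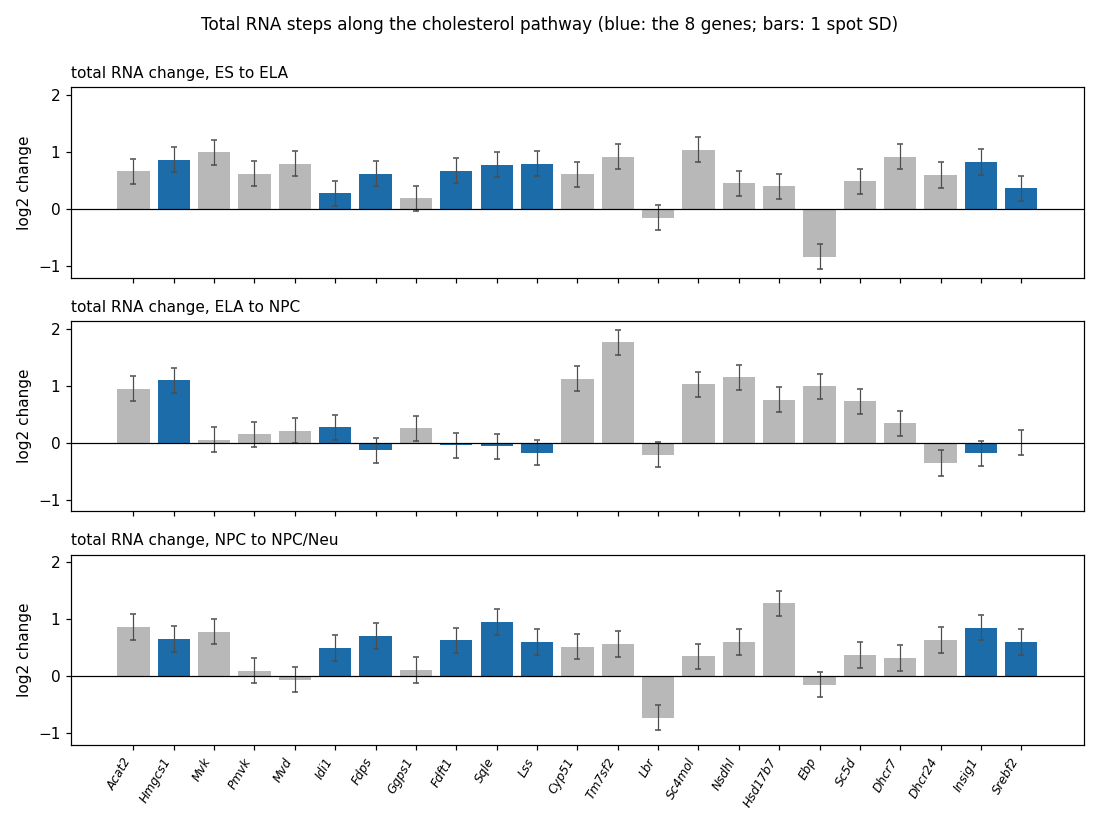
Log2 difference in total RNA at each of the 3 steps for synthesis enzymes in pathway order, followed by Insig1 and Srebf2; blue bars are the 8 genes described, grey bars the other enzymes, and error bars 1 spot SD. The blue bars are above 0 from ES to ELA and from NPC to NPC/Neu, and near 0 from ELA to NPC except for Hmgcs1 at 1.09, where several grey bars on the way from lanosterol to cholesterol stand at or above 1.

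Most of the 16 other enzymes of the pathway also had a higher level at the end of the course. From ES to NPC/Neu 10 were higher by at least 1, against 11.3% of all gene names, and the median was 1.65. Ebp, the sterol isomerase, differed by 0.01, and it was likewise named after its value was seen. Lbr, a sterol reductase that is also a receptor of the nuclear lamina, was the single one lower by at least 1, with -1.09, and was named after its value was seen; its brighter probe alone did not reach -1. From ES to ELA the list had a median of 0.60, near that of the 8 genes. From ELA to NPC its median was 0.66 where that of the 8 genes was -0.06. The enzymes that differed most at that step act on lanosterol and later sterols. Tm7sf2, a sterol reductase, was at 10.48, 11.40, 13.16 and 13.72, and Cyp51, the lanosterol demethylase, at 11.32, 11.92, 13.05 and 13.56. Sc4mol (now Msmo1, a sterol methyl oxidase) was at 14.33, 15.37, 16.39 and 16.74, and Nsdhl, a sterol dehydrogenase, at 9.58, 10.03, 11.18 and 11.77. These 4 stood at least 1 higher in NPC than in ELA, against 7.13% of all gene names in the main processing. With the 75th percentile scaling 2 of the list did so.

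Early enzymes outside the 8 also ended higher. Acat2, the acetoacetyl-CoA thiolase, differed by 2.47 and Mvk, mevalonate kinase, by 1.83 from ES to NPC/Neu. Hsd17b7, a ketosteroid reductase of the late pathway, had 2.43, of which 1.28 fell between NPC and NPC/Neu.

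The uptake and transport list was mixed, with 4 of 9 genes higher by at least 1 from ES to NPC/Neu (11.3% of all gene names). None was lower by as much, the median was 0.58, and with the 75th percentile scaling 2 of the 9 reached 1. The lipoprotein receptors Vldlr and Lrp8, both also reelin receptors of neurons, differed by 4.62 and 3.24 as means of 2 probes each. Their probes differed in size, with 6.39 and 2.85 for Vldlr and 4.58 and 1.90 for Lrp8. The dimmer Vldlr probe was well above background on only 4 arrays. Npc1 and Npc2, which export cholesterol from lysosomes, went separate ways, Npc1 at 10.06, 11.21, 9.97 and 9.99 and Npc2 at 13.98, 14.34, 15.25 and 15.29.

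The efflux and storage list had no gene higher in NPC/Neu than in ES. Of its 6 genes 2 were lower by at least 1 (11.3% of all gene names), and the median was -0.67. Apoe, the lipoprotein of brain lipid transport, was at 15.27, 15.32, 13.58 and 12.81. Nr1h3, a nuclear receptor for oxysterols, had -1.16 from ES to NPC/Neu. The cholesterol pumps varied far more between neighbouring stages than the synthesis genes did, Abca1 at 9.61, 6.66 (not well above background), 7.69 and 9.23 and Abcg1 at 12.09, 13.96, 8.78 and 11.23. Soat1, which esterifies cholesterol for storage, was at 9.81, 11.09, 10.32 and 9.33.

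Of the sterol sensing list, 2 of 5 genes were higher by at least 1 from ES to NPC/Neu, against 11.3% of all gene names. They were Srebf1 with 1.25 and Scap with 1.13 (0.67 with the 75th percentile scaling), and the median of the list was 0.18. Insig2, the relative of Insig1, differed by 0.18 where Insig1 differed by 1.48. The fatty acid genes had 7 of 10 higher by at least 1, against 11.3% of all gene names, and a median of 1.77. They were led by the desaturases Scd2, with 3.20, and Fads1, with 3.11, followed by Scd1 with 2.20, Fads2 with 2.15, the fatty acid synthase Fasn with 1.77, Acss2 with 1.76 and Elovl6 with 1.03 (0.43 with the 75th percentile scaling).

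**Figure D3:**
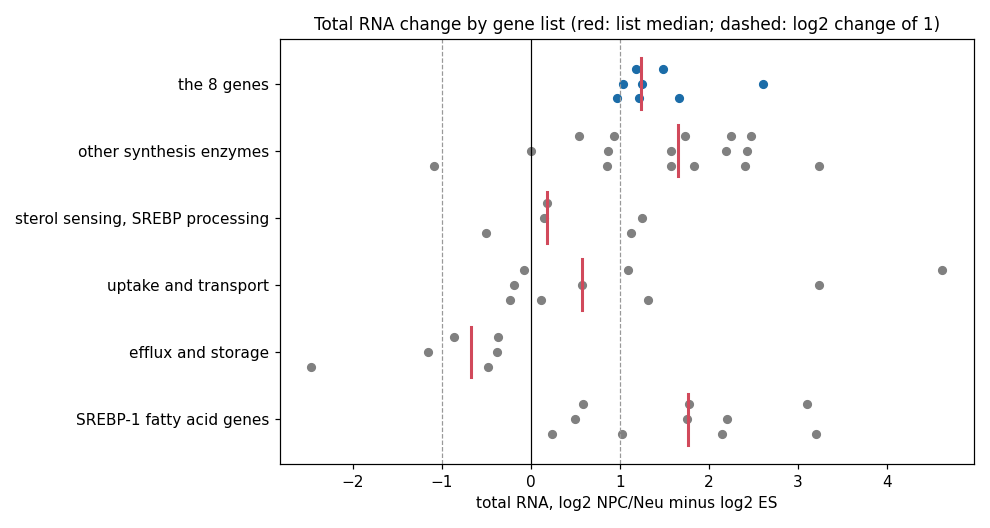
Log2 difference in total RNA between NPC/Neu and ES for each gene of 6 lists, with 1 dot per gene, a red bar at each list's median and dashed lines at -1 and 1. The 8 genes lie between 0.97 and 2.61, and the efflux and storage genes all lie below 0.

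Ago enrichment is the log2 signal of Ago-RNA minus that of total RNA for the same gene and stage, with a spot SD of 0.21 to 0.23. A high value means that the mRNA took a larger place in the Ago fraction than in the whole RNA of the cells. The 8 genes did not share an enrichment as they shared their total RNA profile. Their medians were -0.01, 0.04, 0.28 and 0.37 in ES, ELA, NPC and NPC/Neu, against 0.03, 0.00, 0.02 and 0.03 over all gene names.

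Hmgcs1, Lss and Srebf2 had a high enrichment in ES that was smaller in ELA. The Ago-RNA signal of Hmgcs1 was 16.71, 16.14, 17.70 and 19.08, which gave enrichments of 1.45, 0.01, 0.48 and 1.21. For Lss the Ago-RNA signal was 13.26, 12.95, 13.20 and 14.42, and the enrichments were 0.99, -0.12, 0.31 and 0.93. Both genes thus had high values at the 2 ends of the course and values near 0 in ELA. Over all gene names, enrichments of at least 1 were also fewer in ELA, with 874 of 36024. The counts were 2372 of 36151 in ES and 2648 of 36100 in NPC/Neu, so lower values in ELA were not particular to these genes. The brighter Srebf2 probe had Ago-RNA signals of 12.06, 11.75, 11.96 and 12.84 and enrichments of 1.38, 0.34, 0.62 and 0.78, and the coding probe, with 0.95, 0.54, 0.65 and 0.58, was likewise highest in ES.

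Sqle gained its enrichment late. Its Ago-RNA signal was 14.97, 15.73, 16.27 and 18.17, so the enrichments in the 4 stages were 0.03, 0.01, 0.62 and 1.56. Fdps was not enriched at any stage by more than the spot SD, with -0.05, 0.17, -0.15 and 0.06.

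Idi1 and the bright probe of Fdft1 were lower in the Ago fraction. Idi1 had Ago-RNA signals of 14.32, 15.03, 14.54 and 14.86 and enrichments of -0.37, 0.07, -0.69 and -0.87. The bright Fdft1 probe had -0.77, -0.77, -1.01 and -0.92, the most even of all probes here, while the dim probe gave 0.27, -0.53, -0.18 and 0.41 from signals close to background. Insig1 had Ago-RNA signals of 9.34, 11.14, 10.98 and 11.28. Its enrichments were -0.76, 0.22, 0.25 and -0.30, below 0 at the 2 ends of the course and above it in between. Only the ES value, which rests on the bright ES Ago-RNA array, lay past 2 spot SDs. The NPC/Neu value was 0.14 with Ago-RNA and total RNA arrays normalized apart.

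**Figure D4:**
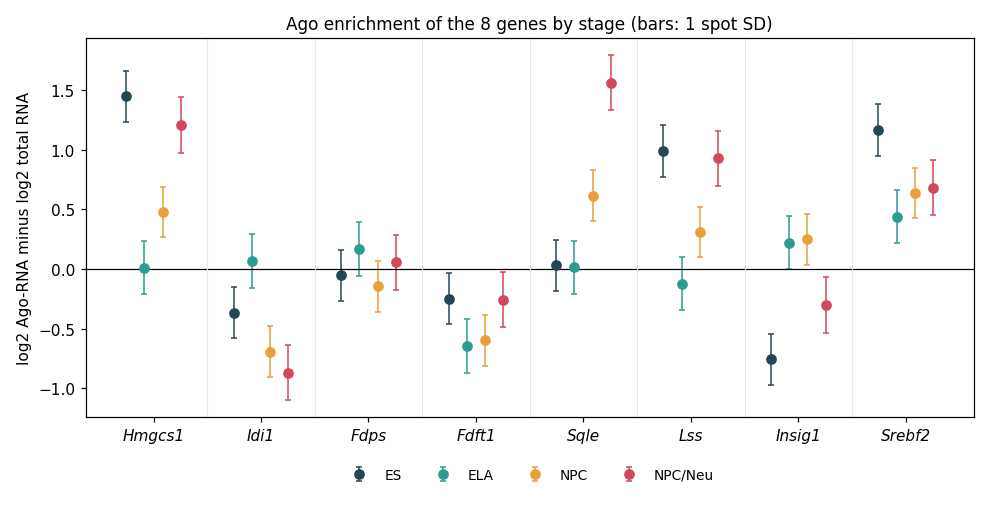
Ago enrichment (log2 Ago-RNA minus log2 total RNA) of the 8 genes at the 4 stages, with 1 spot SD as error bars and genes with 2 probes shown as their mean. Hmgcs1 and Lss are high in ES and NPC/Neu and near 0 in ELA, Sqle is at 0.62 in NPC and 1.56 in NPC/Neu, and Insig1 is lowest in ES.

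In ES, 2 of the 8 genes had an enrichment of at least 1, Hmgcs1 and Srebf2 (mean of its probes 1.17), against 6.56% of all gene names. With the 75th percentile scaling Hmgcs1 was at 0.72 and Lss, at 1.04, took its place, where the median of all gene names was -0.57. With the arrays of each RNA kind normalized apart Lss passed as well, at 1.47. In NPC/Neu the genes at 1 or more were Hmgcs1 and Sqle, against 7.34%. With the 75th percentile scaling both were below 1 (0.93 and 0.97) and Lss alone passed, at 1.15. The median of all gene names was then -0.35. With the separate normalization Lss and Srebf2 passed in addition to Hmgcs1 and Sqle, which made 4.

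The variation of the enrichment between 2 stages had a spot SD of 0.31. From ES to ELA it was -1.44 for Hmgcs1 and -1.11 for Lss, and a variation of -1 or less was found in 4.41% of all gene names. Srebf2 followed with -0.73. For Hmgcs1 and Lss the Ago-RNA signal was lower in ELA than in ES while total RNA was higher, and for Srebf2 both probes had a lower Ago-RNA signal but only the brighter a higher total RNA. Insig1 went the other way with 0.98, the only one of the 8 above 0 by more than 2 spot SDs, as were 11.9% of all gene names. Sqle, with -0.02, and Fdps, with 0.22, differed by less than the spot SD. All variations from ES rest on the bright ES Ago-RNA array. With the 75th percentile scaling the variation of Hmgcs1 was -0.86 and that of Lss -1.18, where the median of all gene names was 0.32.

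From ELA to NPC the variation was 0.60 for Sqle, 0.47 for Hmgcs1, 0.43 for Lss and -0.76 for Idi1, the last being the only one past 2 spot SDs, as were 7.76% of all gene names on the lower side. From NPC to NPC/Neu it was 0.95 for Sqle and 0.73 for Hmgcs1, both above 2 spot SDs as were 7.42% of all gene names, and 0.62 for Lss, just inside them. Insig1 had -0.55 at this last step.

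Longer mRNAs had higher Ago enrichments on these arrays. Over the 23 of the 24 synthesis and regulator genes (the 8 and the other enzymes) with an annotated coding transcript, Spearman's rho between transcript length and Ago enrichment was 0.51, 0.20, 0.43 and 0.41 from ES to NPC/Neu. Over all gene names with a length and an Ago-RNA signal above 7.82, the limit between background and signal on the log2 scale, it was 0.62, 0.38, 0.38 and 0.51. These correlations run across genes measured on the same arrays, which are not independent replicates, and the part of length in the enrichments of single genes was not tested.

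The Srebf2 gene also carries mmu-miR-33, a microRNA known to lower the cholesterol exporter Abca1, at chr15:82198127-82198147 (GRCm38.p6, plus strand) for its 5p arm, which RefSeq places inside the gene. It is shown with its seed, bases 2 to 8, in capitals.
mmu-miR-33-5p: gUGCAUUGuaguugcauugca
The microRNA itself was not measured on these arrays. The letters complementary to the seed, CAATGCA, occurred in the 3′ untranslated region of none of the 7 genes with one annotated among the 8, but 3 times in that of Abca1, shown here with the matches in capitals, where the first 2 overlap.
Abca1: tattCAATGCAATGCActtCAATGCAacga
Of 1896 untranslated regions of a length similar to that of Abca1, 15.5% held at least 1 match. The Abcg1 region held 2 matches, and 7.46% of 2735 regions near its own length held at least 1. Abca1 had Ago enrichments of 1.08, 0.49, 0.99 and 1.72 in ES, ELA, NPC and NPC/Neu, and Abcg1 0.30, -0.15, 0.94 and 0.95. Letter matches of this kind are a description of the sequence and do not show that the microRNA acts on it.

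The 10 gene names whose total RNA profile was nearest to the mean profile of the 8, by Euclidean distance over the 4 total RNA arrays and among 19896 names, were led by Zfp653 at a distance of 0.08, Spire1 at 0.11 and Tcf7l2 at 0.12. Ash1l, Cd151, Lrrc58 and Ip6k1 were also among them, with 3 entries that carry only a probe or transcript identifier. None of the 10 is on a lipid list used here. The nearest gene of those lists was Elovl6 at rank 168, and Scap was at 211 and Mvk at 216. The 8 genes themselves lay 0.16 (Fdft1) to 1.10 (Hmgcs1) from their mean profile.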

How the data were processed

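The authors hybridized Cy3-labelled RNA to 8 one-colour mouse arrays and deposited the scanner's spot intensity, not normalized. The file headers name Feature Extraction 10.7.3.1 and mm9, whereas the submitters' processing notes name version 9.1 and limma. Here the local background was removed from each mean intensity by normexp (offset 50), irregular spots left out, arrays quantile normalized on the log2 scale with limma 3.58.1 in R 4.3.3, and spots, then probes, averaged per gene name; averages were taken over 36163 names. The steps were tested on simulated data. The Ago-RNA signal limit came from a mixture of 2 normal distributions (mclust 6.1.1). Spot SDs came from 232 probes well above background, printed 10 times each. With 1 array per condition a limit of 1 on the log2 scale was used in place of a test, so the small number of arrays bounds how precise a value is. The 8 genes and the lists were chosen with earlier results of these data known. All 8 genes are named, and of each other list the genes past 1 between any pair of stages compared, up to 8; some list genes count in the totals but are not reported here by name. GENCODE vM1 shares the build mm9. RefSeq gave the promoters and the microRNA.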

Additional observations from a re-analysis of the deposited data

Results flagged for a closer look

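The Ago enrichment of Insig1 had opposite signs at different stages, by more than the spot SD in ES, NPC and NPC/Neu; the ELA value of 0.22 was within it. It was 1.01 higher on the log2 scale in NPC (0.25) than in ES (-0.76), and from NPC to NPC/Neu (-0.30) it differed by -0.55. The difference was not tested, since each stage has 1 pair of arrays. With Ago-RNA and total RNA arrays normalized apart, the NPC/Neu value was 0.14, so that the sign at that stage depended on the normalization, and the ES value was -0.51. No condition had enough arrays to look for an outlying sample.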

How the results depend on the processing

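No paired analysis was possible because each condition has 1 array. Of 704 values of single genes among the 8 under the 8 alternatives, 627 moved by less than the spot SD and 77 by more. None of size 1 or more changed sign, but smaller values did in 30 cases, 11 of them with the 75th percentile scaling. Of the 77, 34 came with the 75th percentile scaling and 21 with the separate normalization. Shares of all gene names past a limit are given for the main processing only. With the 75th percentile scaling, the median of the 8 genes was -0.29 from ELA to NPC, where the median of all gene names was -0.41, and 0.95 from ES to NPC/Neu, and 3 genes in place of 7 reached 1 from ES to NPC/Neu. With the separate normalization the median enrichment was 0.28 in ES and 0.31 in ELA, against 0.08 and 0.09 over all gene names. In NPC/Neu 4 genes in place of 2 reached 1 with it. With the 75th percentile scaling 1 did, where the median of all gene names was -0.35. From ES to ELA 1 gene in place of 0 reached 1 with either use of the processed signal, and from NPC to NPC/Neu 1 did with these and with the separate normalization. With the limit of 2 spot SDs, added later, the counts at these steps were 6 and 8 in the main processing. With the 75th percentile scaling Hmgcs1, Idi1, Fdps and Lss fell short of it from NPC to NPC/Neu (0.06, 0.23, 0.33 and 0.42). The cause was not tested. The dim Fdft1 probe limits that gene: the Fdft1 difference from ES to ELA was 1.93 with the quantile-normalized processed signal against 0.67. Values for other lists moved by more than the spot SD in 78 of 1150 cases.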
